A study of Mus musculus with 12 samples.

Results

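Egr1, Fos, Junb, Ier2, Ier3, Dusp6, Dusp4, Spry4, Etv4 and Etv5 are genes whose transcription responds to the kinase ERK, the last kinase of the RAS-RAF-MEK cascade. They were taken by gene symbol, by a rule that uses no measured value, and make up 10 of the 25759 genes listed for each library. All 10 had enough reads to be tested in each of the 5 comparisons. RNA was sequenced from HATX3 cells, mouse embryonic stem cells (ESCs) derived from haploid embryos that became diploid in culture and that carry a doxycycline-inducible Xist allele together with the transactivator that drives it. Wild-type (WT) samples 1, 2 and 3 of the parental line and the ΔCdk8 clones 8, 11 and 15 were each sampled uninduced and after 48 h of Xist induction, which gives 12 libraries in 4 groups of 3. The ΔCdk8 clones are homozygous for a small deletion around the start codon of Cdk8, the kinase of the Mediator complex, and 1 of the 3 independent clones also carries a small insertion there. A difference between the genotypes therefore cannot be told apart from a difference between selected clones and their parental line. Xist induction silences X-linked genes and kills cells with time, so induced libraries come from the cells that remained. Doxycycline was given to the induced libraries of both genotypes alone, so its own effect and that of Xist cannot be told apart either. The cells were grown in serum with leukaemia inhibitory factor, and the maintenance medium also held inhibitors of Gsk3β and of Mek1/2, the kinases directly above ERK. Whether the Mek1/2 inhibitor was in the medium of the sequenced cultures is not given in the sources used here.

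Immediate early genes need no new protein for their induction: ERK phosphorylates factors that already sit on their promoters, among them Elk1, which acts with serum response factor (SRF), and transcripts appear within minutes of a growth factor. A second set of targets, the phosphatases Dusp6 and Dusp4 and the receptor signalling antagonist Spry4, turns the pathway down again, and the ETS factors Etv4 and Etv5 follow fibroblast growth factor (FGF) signalling. In mouse ESCs ERK is driven largely by Fgf4 that the cells make themselves, and CDK8 is known in other cells as a coactivator of serum-induced immediate early genes. The comparison of genotypes asks whether these genes depend on Cdk8 in ESCs at steady state in serum, and the comparison of induced with uninduced libraries asks whether they move with Xist.

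The stretches directly upstream of the transcription start are shown for Fos, Junb, Ier3, Dusp6 and Etv5, which cover the 3 kinds of gene whose RNA is compared here: immediate early genes, an ERK phosphatase and an ETS factor. Each has 100 bases, taken from the RefSeq promoter sequences on the GRCm38 mouse genome and written 5′ to 3′ on the strand of the gene, ending just before the more upstream of the annotated RefSeq and Ensembl starts. Capitals mark matches on either strand to TATAAA, to the core TGACG of a cyclic AMP response element, to the ETS core GGAA and to the GC box GGGCGG.
Fos (chr12:85473790-85473889, strand +): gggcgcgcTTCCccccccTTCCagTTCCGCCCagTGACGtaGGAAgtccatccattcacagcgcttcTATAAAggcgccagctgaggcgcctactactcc
Junb (chr8:84978749-84978848, strand -): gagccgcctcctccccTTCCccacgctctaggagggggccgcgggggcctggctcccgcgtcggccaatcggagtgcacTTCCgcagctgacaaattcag
Ier3 (chr17:35821584-35821683, strand +): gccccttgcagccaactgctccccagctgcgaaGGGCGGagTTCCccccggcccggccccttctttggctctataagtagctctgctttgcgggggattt
Dusp6 (chr10:99263131-99263230, strand +): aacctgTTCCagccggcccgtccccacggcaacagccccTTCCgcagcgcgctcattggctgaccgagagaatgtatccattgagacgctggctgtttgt
Etv5 (chr16:22439720-22439819, strand -): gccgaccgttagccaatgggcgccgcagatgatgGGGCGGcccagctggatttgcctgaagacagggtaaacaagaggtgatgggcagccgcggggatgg
Fos alone held TATAAA, 33 bases before the end of its stretch, and TGACG, 66 bases before the end. It also held 4 matches to GGAA, one of which overlaps its match to GGGCGG. Junb and Dusp6 held 2 matches to GGAA each, Ier3 held 1 beside a GC box, and Etv5 held a GC box without GGAA. Neither the SRF-binding CArG box nor the AP-1 motif TGANTCA was matched in any of the 5 stretches. Sequence further upstream was not searched, so this holds for these 100 bases only. Among 32851 promoters cut to the 100 bases before the RefSeq start, 5.56% held TATAAA, 10.5% TGACG, 66.8% GGAA, 24.7% GGGCGG, 0.615% the CArG box and 2.73% TGANTCA. The stretches of Ier3 and Etv5 lie 29 and 149 bases further upstream than such windows, so for them the shares are from an unlike position. The promoters of Egr1, Ier2, Dusp4, Spry4 and Etv4 are not shown.

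Gene reads per library ranged from 22170087 to 60798578. The ESC markers summed to between 3772 and 7747 TPM (reads per exon length, scaled to the same total in every library), and the 8 primitive endoderm markers to between 5.77 and 12.5 TPM, with Sox17, Foxa2 and Pdgfra below 1 TPM in every library. Dppa5a and Pou5f1 make up most of the ESC sum. Sox2, Nanog, Esrrb, Klf4 and Tfcp2l1, 5 of the 9 ESC markers, were higher in every uninduced clone than in every uninduced WT sample. So were 16.3% of the 14646 genes tested. Pou5f1, Zfp42, Utf1 and Dppa5a overlapped. Nanog was at 157, 98.4 and 50.2 TPM in uninduced WT samples and at 403, 321 and 192 TPM in clones, and Tfcp2l1 at 39.4, 16.9 and 10 TPM against 91.9, 102 and 76.7 TPM. Esrrb was at 118, 68.3 and 32.4 TPM against 176, 145 and 121 TPM, and after induction the order was reversed, with 247, 227 and 210 TPM in WT samples against 207, 203 and 157 TPM in clones. The lists for trophoblast, fibroblasts, mesoderm and primitive endoderm reached higher sums in uninduced clones than in uninduced WT samples. Only the fibroblast sums did not overlap between the genotypes in uninduced cells. In uninduced cells the 6 trophoblast markers summed to 31.1 to 158 TPM in WT samples and 69.4 to 538 TPM in clones, mostly from Krt8 and Krt18, with Cdx2 below 1 TPM. The 7 fibroblast markers summed to 8.79 to 17.8 against 19.8 to 29.5 TPM, mostly from Thy1, with Col3a1, Dcn and Lum below 1 TPM. In clone 15 Thy1 was within the WT range, at 10.6 TPM, and Col1a1, Col1a2 and Postn were at 3.36, 3.67 and 2.71 TPM. The 5 mesoderm markers summed to 2.39 to 5.08 against 5.05 to 14.7 TPM, mostly from Eomes, with T and Mesp1 below 1 TPM. The 5 neural markers, at 74.4 to 120 TPM in WT samples and 87.3 to 107 TPM in clones, did not separate the genotypes. The part of these markers in the genotype differences given here was not tested. Cdk8 RNA was at 64.2, 69.4 and 74.2 TPM in uninduced WT samples 1, 2 and 3 and at 34.4, 56.8 and 85.3 TPM in uninduced clones 8, 11 and 15. In induced cells it was at 51.6, 51.5 and 53.1 TPM against 33.4, 57.8 and 84.9 TPM. Clone 8 was below the WT samples in both states, clone 11 below them only when uninduced and clone 15 above them in both. The RNA level by itself neither bears out nor contradicts the label of a small deletion. These values are for the whole gene and do not resolve the deleted stretch, and whether the RNA carries the deletion was not tested. The clones were selected in the study for lacking Cdk8 protein on immunoblots, and are named here as labelled. The paper also reports residual transcript in the clone with the insertion, and says that the insertion might explain this. WT sample 1 stood apart from WT samples 2 and 3, and clone 11 from clones 8 and 15: with group means removed, deviations of the uninduced WT sample 1 correlated at −0.40 and −0.47 with those of induced WT samples 2 and 3, whereas uninduced sample 2 with induced sample 3 gave 0.263 and uninduced 3 with induced 2 gave 0.123 (15137 genes). Uninduced clone 11 gave −0.59 and −0.54 with induced clones 8 and 15, whereas clones 8 and 15 gave 0.00688 and 0.0562 with each other. Removing the mean of 3 samples by itself pushes such correlations below 0, so they are read against each other only.

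The genes spanned a wide range of steady-state levels. In uninduced WT cells Etv5 was the highest, at 288±10.9 TPM (mean±s.d., n = 3), followed by Ier2 at 132±54.4, Dusp6 at 130±25.3 and Etv4 at 127±34.1 TPM, which did not differ from each other beyond their spread. Spry4 followed at 91.1±12.7 TPM, Ier3 at 46.0±60.0, Dusp4 at 29.7±4.87, Junb at 13.3±1.61, Egr1 at 6.66±6.81 and Fos at 2.71±0.305 TPM. Ier3 and Egr1 had standard deviations above their means, so their place in this order is not fixed by the data. Over the 12 libraries the mean of Etv5 was above that of 97.9% of all genes and the mean of Fos above 59.4%. The delayed targets Etv4, Etv5, Dusp6 and Spry4 thus sat well above the classical immediate early factors Egr1 and Fos in all 4 groups. This order did not hold for the kinds of gene as wholes. The mean of the immediate early gene Ier2 was above those of Spry4 and of the feedback gene Dusp4 in all 4 groups.

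**Figure D1:**
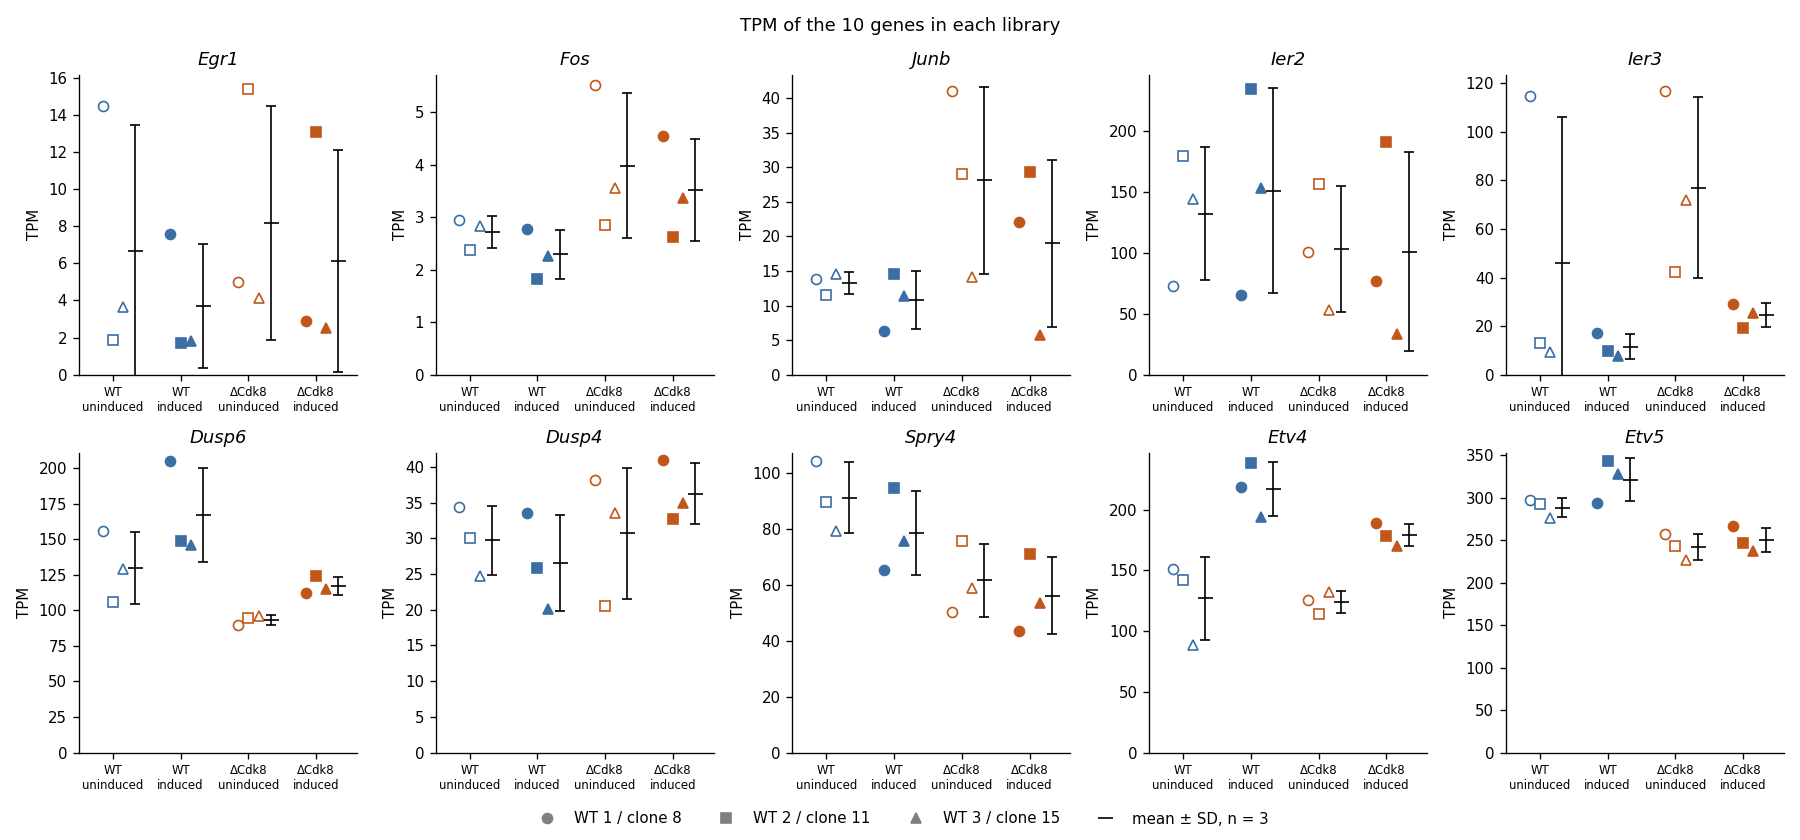
TPM (y axis, linear, from 0) of each gene in the 12 libraries, with WT in blue, ΔCdk8 in orange, open symbols for uninduced and filled symbols for induced libraries. Black bars give mean±s.d. of 3 libraries, cut at 0. Dusp6 lies lower in the clones than in WT samples in both states, whereas Egr1 and Ier2 overlap in part between the groups.

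In uninduced cells, no member passed the threshold between ΔCdk8 and WT cells (adjusted p under 0.01 and more than 2-fold, edgeR), and 0% of the 14646 genes tested did. DESeq2 passed 386 genes (2.64%) and no member either. Without the 2-fold minimum, 1 member, Dusp6, had a DESeq2 adjusted p under 0.05 (0.026), against 8.92% of genes. Among all genes, 2982 (20.4%) had an unadjusted p under 0.05 in edgeR, and 4 of the 10 members did. These were Dusp6, Spry4 and Etv5 with lower values in the clones (8.49% of genes) and Junb with higher values (11.9% of genes). The TPM of every clone lay below that of every WT sample for Dusp6, Spry4 and Etv5, as it did for 6.79% of all genes tested. No member lay above all WT samples, against 16.3% of genes. TPM and the normalised counts used for testing were scaled differently: the median gene was 0.17 higher in the clones on the log2 scale by group mean TPM, and 0.03 higher in the edgeR fit. The median log2 fold change of the 10 members was −0.15.

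Dusp6, the cytoplasmic phosphatase that removes the activating phosphates from ERK and a standard readout of ERK activity, had the lowest unadjusted p of the members. Its TPM was 156, 106 and 129 in uninduced WT samples 1, 2 and 3, against 89.6, 94.5 and 96.0 in clones 8, 11 and 15. The clones clustered within a few TPM of each other below the lowest WT value. The log2 fold change was −0.64±0.17 (± standard error, s.e., adjusted p = 0.154). Leaving out 1 sample at a time gave values from −0.77 to −0.49 and an adjusted p from 0.0476 to 0.501.

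Spry4, a Sprouty protein that dampens receptor tyrosine kinase signalling, was at 104, 89.6 and 79.2 TPM in uninduced WT samples and at 50.1, 75.7 and 58.7 TPM in the clones. Clone 11 came close to the lowest WT sample, and clones 8 and 15 were well below. The log2 fold change was −0.71±0.23 (s.e., adjusted p = 0.185), and −1.0 with an adjusted p of 0.0275 without clone 11. Leaving out 1 sample at a time gave values up to −0.55 and an adjusted p up to 0.501. Dusp4, a nuclear phosphatase of ERK and other MAP kinases, did not share this order, with 34.4, 30.0 and 24.7 TPM in WT samples and 38.2, 20.5 and 33.5 TPM in clones. Clone 11 was the lowest of these 6 libraries and clone 8 the highest, and the log2 fold change was −0.12±0.23 (s.e., adjusted p = 0.76).

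Etv5 and Etv4 are ETS transcription factors of the PEA3 family that FGF signalling through ERK keeps expressed. Etv5 was at 297, 292 and 276 TPM in uninduced WT samples and at 257, 243 and 226 TPM in the clones, without overlap and with a small spread in both groups. Its log2 fold change was −0.40±0.14 (s.e., adjusted p = 0.2). Etv4 was at 151, 142 and 88.4 TPM in WT samples and at 126, 114 and 132 TPM in clones, so that 3 of 3 clones lay inside the WT range. Its log2 fold change was −0.18±0.20 (s.e., adjusted p = 0.614), −0.06 without WT sample 1 and −0.38 without WT sample 3.

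Egr1, Fos and Junb are the immediate early transcription factors of the set. Egr1, a zinc finger factor, was at 14.5, 1.86 and 3.66 TPM in uninduced WT samples and at 5, 15.4 and 4.12 TPM in clones. One library in each genotype, WT sample 1 and clone 11, was several times above the others. Its log2 fold change of 0.22±0.84 (s.e., adjusted p = 0.895) was −0.78 without clone 11 and 1.49 without WT sample 1. Fos, a subunit of the AP-1 factor, was at 2.94, 2.37 and 2.83 TPM in WT samples and at 5.53, 2.86 and 3.56 TPM in clones, where clone 11 overlapped the WT samples. Its log2 fold change was 0.38±0.35 (s.e., adjusted p = 0.527). Between 71 and 263 reads per library stood behind these Fos values, fewer than for any other member. Leaving out 1 sample at a time gave 0.10 to 0.51, the lowest without clone 8.

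Junb, a second AP-1 subunit, was at 13.8, 11.5 and 14.6 TPM in uninduced WT samples and at 41.0, 29.1 and 14.1 TPM in clones. Clones 8 and 11 were above all WT samples and clone 15 was within their range. The log2 fold change was 0.93±0.39 (s.e., adjusted p = 0.243), 0.61 without clone 8 and 1.28 without clone 15. The gene overlaps Prdx2 on the opposite strand, but only outside the exon of Junb, where 0 to 1 reads per library were counted. Ier2, a small nuclear protein induced by growth factors, was at 72.4, 179 and 144 TPM in WT samples and at 101, 156 and 53.0 TPM in clones, with partial overlap, clone 15 below all WT samples and WT sample 2 above all clones, and a log2 fold change of −0.46±0.48 (s.e., adjusted p = 0.579). Without clone 11 the Ier2 value was −1.02 and without clone 15 it was −0.12.

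Ier3, an immediate early gene known for roles in cell survival, varied most. It was at 115, 13.1 and 9.51 TPM in uninduced WT samples, so that WT sample 1 was 12.1 times as high as WT sample 3, and only 7.09% of genes had a highest WT value more than 5 times the lowest. In the clones it was at 117, 42.4 and 72.1 TPM, all above WT samples 2 and 3. The log2 fold change was 0.56±0.89 (s.e., adjusted p = 0.723). It became 2.56 with an adjusted p of 0.0436 without WT sample 1, and 0.07 with an adjusted p of 0.974 without WT sample 3. WT sample 1 also carried the highest Egr1 value of the WT group and the highest sum of the 6 trophoblast markers, 158 TPM, in that group, mostly from Krt8 (48.8 TPM), Krt18 (69.6 TPM) and Hand1 (35.5 TPM). The part of these markers in the Ier3 value was not tested.

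**Figure D2:**
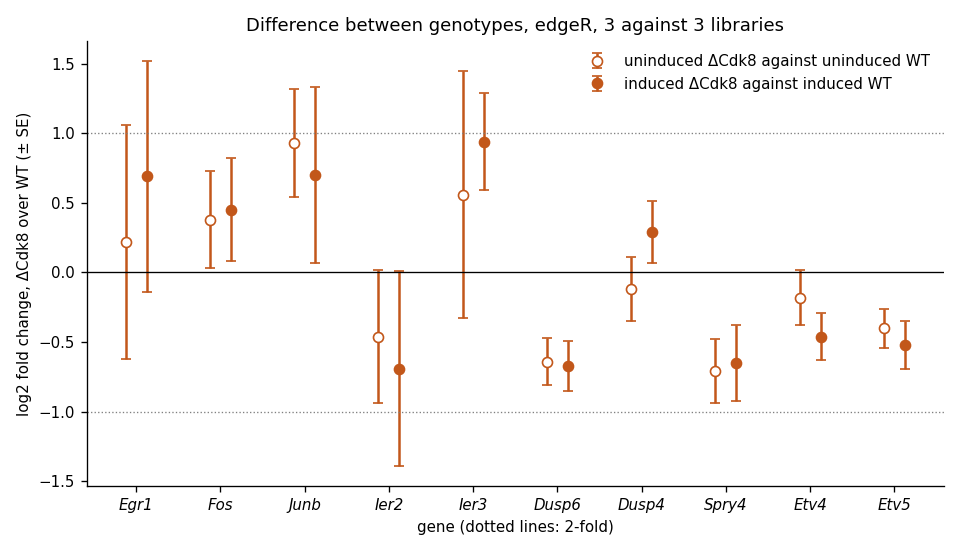
Log2 fold change of ΔCdk8 over WT cells (y axis, edgeR, bars ± standard error) for the 10 genes (x axis), with open symbols for uninduced and filled symbols for induced libraries. Dotted lines mark a 2-fold difference. Dusp6, Spry4, Etv4, Etv5 and Ier2 lie below 0 in both states, and Junb, Ier3, Fos and Egr1 lie above 0. Bars are widest for Egr1 and for uninduced Ier3.

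After 48 h of Xist induction, Dusp6 and Etv5 were again below all WT samples in every clone, Etv4 now was too, Spry4 now overlapped, and Ier3 was above. Again no member and 0% of 14143 genes passed the threshold in edgeR, and DESeq2 passed 5.81% of genes without a member. Without the 2-fold minimum, 2 members had a DESeq2 adjusted p under 0.05, Dusp6 (0.0166) and Etv5 (0.0408), against 15.4% of genes. An unadjusted p under 0.05 was found for 25.9% of genes and for 5 members, with Dusp6, Spry4, Etv4 and Etv5 lower (11% of genes) and Ier3 higher (14.9% of genes). Every clone lay below every WT sample for Dusp6, Etv4 and Etv5, against 10.1% of genes, and above every WT sample for Ier3, against 18.6% of genes. Dusp6 and Etv5 lay below in both states, against 3.74% of 14030 genes. The uninduced and induced libraries come from the same clones, so the second comparison is not an independent repeat of the first.

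Induced Dusp6 was at 205, 149 and 146 TPM in WT samples 1, 2 and 3 and at 112, 124 and 115 TPM in clones 8, 11 and 15, with a clear gap between the groups. The log2 fold change of −0.67±0.18 (s.e., adjusted p = 0.0875) was close to the uninduced one. The adjusted p ranged from 0.0298 to 0.299 when a sample was left out. Etv5 was at 293, 343 and 328 TPM in induced WT samples and at 266, 246 and 237 TPM in clones (log2 fold change −0.52±0.17 s.e., adjusted p = 0.12). Etv4 was at 219, 238 and 194 TPM against 189, 178 and 170 TPM (log2 fold change −0.46±0.17 s.e., adjusted p = 0.146). For both ETS factors the gap between the lowest WT sample and the highest clone was small.

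Spry4 was at 65.1, 94.5 and 75.6 TPM in induced WT samples and at 43.5, 70.8 and 53.6 TPM in clones, where clone 11 overlapped WT sample 1 (log2 fold change −0.65±0.27 s.e., adjusted p = 0.179). Without clone 11 the adjusted p was 0.0326, and leaving out other samples gave up to 0.447. Ier3 was at 17.2, 9.53 and 7.69 TPM in WT samples and at 29.1, 19.1 and 25.3 TPM in clones. Here, unlike in uninduced cells, all clones were above WT sample 1 as well, with a log2 fold change of 0.94±0.35 (s.e., adjusted p = 0.149). Dusp4 was at 33.5, 25.8 and 20.1 TPM against 40.9, 32.7 and 34.9 TPM, with clone 11 just under WT sample 1.

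The groups also overlapped for Egr1, Fos, Junb and Ier2. Egr1 was at 7.58, 1.69 and 1.82 TPM in WT samples and at 2.88, 13.1 and 2.50 TPM in clones, with WT sample 1 and clone 11 high as before induction. Fos was at 2.77, 1.83 and 2.26 TPM against 4.55, 2.63 and 3.36 TPM, where clones 8 and 15 were above all WT samples and clone 11 was just under WT sample 1. Junb was at 6.38, 14.6 and 11.4 TPM against 22.1, 29.3 and 5.67 TPM, and Ier2 at 65.1, 234 and 153 TPM against 77.0, 191 and 33.3 TPM. Clone 15 had the lowest Junb and Ier2 of the 6 induced libraries. The log2 fold changes of these 4 genes lay between −0.69 for Ier2 and 0.70 for Junb, with adjusted p-values between 0.451 and 0.61. Single samples moved them: without clone 11 the value was −1.68 for Ier2, 0.16 for Junb and −0.65 for Egr1, without WT sample 2 it was −0.22 for Ier2, without clone 15 it was 1.17 for Junb, without WT sample 1 it was 1.70 for Egr1, and without clone 8 it was 0.22 for Fos.

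Intron reads, which come mostly from RNA that is not yet spliced, were compared in the same way in uninduced cells. Only Dusp6, Dusp4, Spry4, Etv4 and Etv5 had enough of them to be tested, and Egr1, Fos, Junb, Ier2 and Ier3, which have short introns or none, had at most 5 in any library. None of the 5 passed, and 0% of 11804 genes did. Dusp6 had a log2 fold change of −0.88±0.32 (s.e., adjusted p = 0.237) from 46 to 117 intron reads per library, and Spry4 one of −0.82±0.43 (s.e., adjusted p = 0.353) from 60 to 161. Both had the sign seen in all gene reads, but leaving out 1 sample at a time moved the Spry4 value from −1.54 to −0.47 (adjusted p from 0.0215 to 0.732) and the Dusp6 value from −1.19 to −0.70. Etv4, with 486 to 1152 intron reads per library, had −0.24±0.25 (s.e.), Etv5 −0.27±0.20 (s.e.) and Dusp4 0.31±0.54 (s.e.).

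Between induced and uninduced libraries of the same WT number or clone, 5 genes kept 1 direction in all 6 pairs. TPM of Dusp6 and Etv4 was higher after induction in 6 of 6 pairs, against 9.93% of 15137 genes, and TPM of Egr1, Fos and Ier3 was lower in 6 of 6 pairs, against 14% of genes. Without the pairing, no member passed the threshold in WT cells, where 162 of 14006 genes did (1.16%), or in ΔCdk8 cells, where 0% of 14832 did. An unadjusted p under 0.05 was found for 1 member and 21.2% of genes in WT cells and for 2 members and 2.64% of genes in ΔCdk8 cells. DESeq2 passed 4.73% of genes and none of the 9 members it gave a p-value in WT cells, with Ier3 left without one, and 0.243% of genes with 1 member in ΔCdk8 cells. With the WT number or clone as a block in the fit, 553 genes (3.95%) passed in WT cells with none of the members among them, and 208 genes (1.4%) passed in ΔCdk8 cells with 1 member, Ier3, among the 1.27% that were lower.

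Ier3 fell in the ΔCdk8 clones on induction. Induced TPM was 0.249 of the uninduced value in clone 8, 0.451 in clone 11 and 0.351 in clone 15, and with the block the log2 fold change was −1.56±0.13 (s.e., adjusted p = 8.96e-08). Without the block it was −1.61±0.35 (s.e., adjusted p = 0.874). DESeq2 without a block called it as well, at −1.62 (adjusted p = 0.00374). In WT cells the ratio was 0.15 in sample 1, 0.727 in sample 2 and 0.809 in sample 3, so that the low mean came mostly from the high uninduced value of sample 1. The blocked log2 fold change in WT cells was −1.20±0.53 (s.e., adjusted p = 0.154) and ranged from −1.74 to −0.37 on leaving out 1 sample at a time. The interaction, the difference of the 2 log2 fold changes as ΔCdk8 minus WT, was −0.27±0.57 with the block (s.e., adjusted p = 0.82) and 0.39 without it, so that not even its sign is fixed by the data.

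Etv4 had the largest increase of the members. Its induced over uninduced TPM ratio was 1.44, 1.68 and 2.20 in WT samples 1, 2 and 3 and 1.49, 1.56 and 1.29 in clones 8, 11 and 15. Every ratio was above 1. With the block the log2 fold change was 0.90±0.12 in WT cells (s.e., adjusted p = 0.00723) and 0.58±0.08 in ΔCdk8 cells (s.e., adjusted p = 3.02e-05), under the 2-fold minimum in both. The interaction was −0.30±0.15 with the block (s.e., adjusted p = 0.268).

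Dusp6 followed the same pattern at a smaller size, with ratios of 1.31, 1.41 and 1.14 in WT samples and 1.25, 1.31 and 1.20 in clones. The blocked log2 fold change was 0.38±0.08 in WT cells (s.e., adjusted p = 0.0202) and 0.34±0.07 in ΔCdk8 cells (s.e., adjusted p = 0.00369). The interaction of −0.02±0.10 with the block (s.e., adjusted p = 0.937) was the smallest among the members. Etv5, by contrast, had ratios between 0.986 and 1.19 in WT samples and between 1.01 and 1.05 in clones, and neither genotype gave an adjusted p under 0.2 with the block.

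Egr1 and Junb had lower values after induction in most pairs. The Egr1 ratio was 0.524, 0.911 and 0.497 in WT samples and 0.576, 0.845 and 0.607 in clones, with blocked log2 fold changes of −0.71±0.21 (s.e., adjusted p = 0.0606) in WT and −0.54±0.13 (s.e., adjusted p = 0.00802) in ΔCdk8 cells. WT sample 1 and clone 11, which had the most Egr1 before induction, also had the most after it. Junb had ratios of 0.461, 1.27 and 0.78 in WT samples and 0.539, 1.01 and 0.401 in clones, and the blocked log2 fold change in ΔCdk8 cells was −0.65±0.16 (s.e., adjusted p = 0.0129). The Junb value was −1.05 and past the threshold without clone 11, and −0.44 with an adjusted p of 0.0491 without clone 15. Disregarding fold size, 4 members (Ier3, Etv4, Dusp6 and Egr1) had a blocked adjusted p under 0.01 in ΔCdk8 cells, against 6.13% of genes, and 1 (Etv4) did in WT cells, against 6.98%. On leaving out 1 sample at a time, it rose to 0.108 for Egr1 and 0.058 for Dusp6 in ΔCdk8 cells. In WT cells it rose to 0.0573 for Etv4. For Ier3 and Etv4 in ΔCdk8 cells it stayed under 0.01.

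Neither Fos, Spry4, Ier2 nor Dusp4 passed on induction in either genotype. Fos had ratios between 0.773 and 0.943 in WT samples and between 0.823 and 0.945 in clones, a narrow range for a gene with so few reads. Spry4 had ratios between 0.623 and 1.05 in WT samples, with WT sample 1 the lowest, and between 0.868 and 0.936 in clones. Ier2 was above 1 in WT samples 2 and 3 and in clone 11, and below 1 in WT sample 1 and clones 8 and 15. Dusp4 was the only member whose pairs split by genotype, as its induced value was lower in all 3 WT pairs and higher in all 3 clones, a split that 1.43% of 15137 genes showed, beside 1.84% with the opposite split. In the interaction, 0% of genes passed without the block, 0.998% with it and 0.218% in DESeq2, and no member was among them. Without the block 3.88% of genes and no member had an unadjusted p under 0.05, and with it 22.7% of genes and 1 member, Dusp4.

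**Figure D3:**
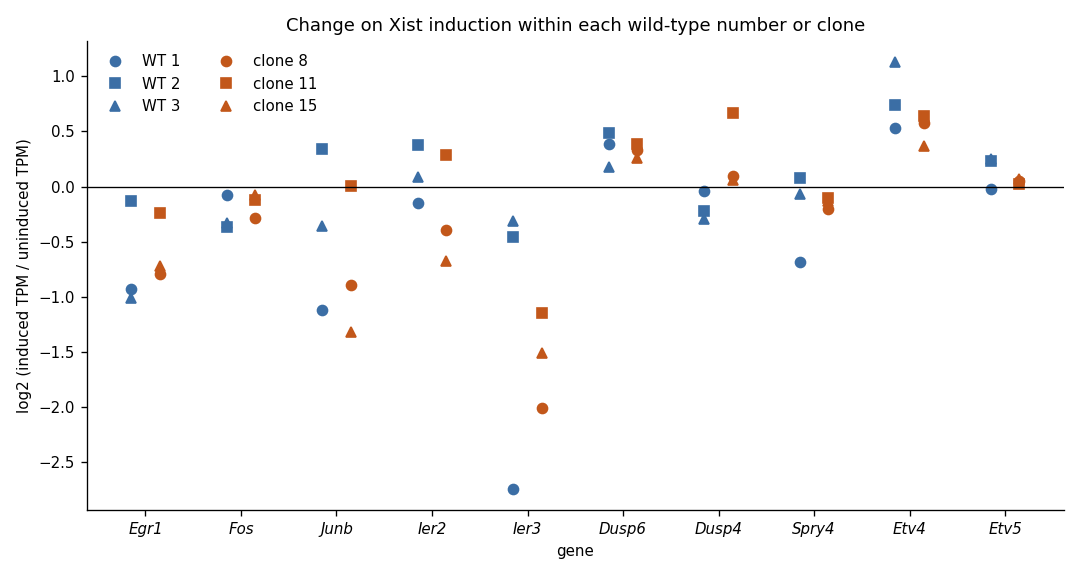
Log2 ratio of induced over uninduced TPM (y axis) of each gene within WT samples 1, 2 and 3 (blue) and clones 8, 11 and 15 (orange), with 1 point per pair. Etv4 and Dusp6 lie above 0 in 6 of 6 pairs and Ier3, Egr1 and Fos below 0, and the point of WT sample 1 sets Ier3 apart from the other WT pairs.

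Other genes of the pathway were counted from lists. Of 32 genes from the FGF ligands and receptors down to the ERK targets Elk1 and SRF, 31 were tested and none passed in uninduced cells between the genotypes (median log2 fold change −0.14, beside 0.03 over all genes). The largest differences in that comparison were those of the ligand Fgf5, at −3.14±0.91 (s.e., adjusted p = 0.163), Hras at −0.62 and Braf at −0.56, and of the receptors Fgfr3 at 0.96 and Fgfr4 at 0.79 and the adaptor Shc1 at 0.65, none past the threshold. An unadjusted p under 0.05 was found for 1 higher and 3 lower genes, against 20.4% of all genes, and DESeq2 called Fgf5 alone. Fgf5 was at 0.708, 5.90 and 9.04 TPM in WT samples and at 0.338, 1.10 and 0.446 TPM in clones, so that WT sample 1 was again unlike WT samples 2 and 3. On induction Fgf5 fell in ΔCdk8 cells with the block, to 0.0341, 0.359 and 0.0766 TPM (log2 fold change −1.96±0.47 s.e., adjusted p = 0.0099), and without the block the value was −1.79±0.99 (s.e., adjusted p = 1). In WT cells it went to 0.436, 1.36 and 1.48 TPM (−1.98±0.34 with the block, adjusted p = 0.0141). Between the induced genotypes DESeq2 called Fgfr3 alone of this list, which was at 0.607, 0.663 and 0.709 TPM in WT samples and at 4.17, 2.74 and 2.63 TPM in clones, with 2.04±0.37 (s.e., adjusted p = 0.055) in edgeR.

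Of 25 other immediate early genes, 23 were tested in uninduced cells and none passed (median 0.11, beside 0.03). The 3 lowest log2 fold changes were those of the polo-like kinase gene Plk2, at −2.22±0.71 (s.e., adjusted p = 0.178), Btg2 at −0.98 and Myc at −0.89, and the 3 highest those of Phlda1, at 1.55±0.36 (s.e., adjusted p = 0.132), Fosl2 at 1.25 and Maff at 0.90. Plk2 was at 19.6, 31.8 and 52.2 TPM in uninduced WT samples and at 1.86, 13.7 and 8.68 TPM in clones. Phlda1 was at 6.36, 3.44 and 3.94 TPM against 19.8, 9.84 and 15.6 TPM. The groups did not overlap for either gene, in opposite directions, as for 6.79% of all genes below and 16.3% above. Of the 23 genes, 1 higher and 4 lower had an unadjusted p under 0.05, against 20.4% of all genes. DESeq2 called Phlda1. On induction Phlda1 rose in WT cells with the block, at 1.43±0.18 (s.e., adjusted p = 0.00591), beside 1.48±0.41 (s.e., adjusted p = 0.0944) without it, and it was the sole gene of this list past the threshold in edgeR in any of the 5 comparisons, blocked or not. DESeq2 called Btg2, Plk2 and Phlda1 higher on induction in WT cells, and Atf3, Btg2, Maff and Plk2 between the induced genotypes.

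Of 15 further feedback and ETS genes, 14 were tested and none passed between the genotypes in uninduced cells (median −0.03, beside 0.03), with 1 higher and 1 lower at an unadjusted p under 0.05 and none called by DESeq2. Ets1 at 0.90, Ets2 at 0.83 and Spry1 at 0.54 were the highest, and Spred3 at −1.0, Ccnd1 at −0.99 and Dusp5 at −0.41 the lowest. Dusp9, an ERK phosphatase gene on the X chromosome, fell on Xist induction in WT cells, from 115, 131 and 105 TPM to 32.8, 37.9 and 21.3 TPM in samples 1, 2 and 3. Its log2 fold change was −1.92±0.22 (s.e., adjusted p = 0.00653). The call was lost in the fit to all 12 libraries and without WT sample 2 or 3, where no gene passed on leaving out either sample. In clones 8, 11 and 15 it went from 151, 60.0 and 201 TPM to 79.6, 40.7 and 94.4 TPM, with a blocked log2 fold change of −0.84±0.09 (s.e., adjusted p = 2.29e-06), under the 2-fold minimum. The blocked interaction of 1.13±0.16 (s.e., adjusted p = 0.00504) passed the threshold, and the one without a block did not (1.03, adjusted p = 1). Ets2 went from 17.3, 9.98 and 9.77 TPM to 9.58, 3.54 and 2.96 TPM in WT samples 1, 2 and 3. It passed the threshold with the block, at −1.32±0.18 (s.e., adjusted p = 0.00712), and not without it, at a fold of like size (−1.19±0.47 s.e., adjusted p = 0.211).

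The other X-linked genes of the pathway did not all move alike. Rps6ka3, an ERK-activated kinase gene, went from 9.14, 8.38 and 7.24 TPM to 4.78, 4.21 and 2.83 TPM in WT cells (log2 fold change −1.04, adjusted p = 0.0407) and fell past the threshold with the block (−1.06±0.11 s.e., adjusted p = 0.00329). Elk1, the ERK-phosphorylated partner of SRF, went from 17.8, 17.3 and 14.1 TPM to 7.34, 10.4 and 8.63 TPM, with a log2 fold change of −0.83±0.21 (s.e., adjusted p = 0.0721). Araf, a RAF kinase gene, was at 18.6, 26.9 and 30.3 TPM before and at 25, 28.8 and 26.8 TPM after induction (log2 fold change 0.10±0.18 s.e.). The 10 members are autosomal.

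**Figure D4:**
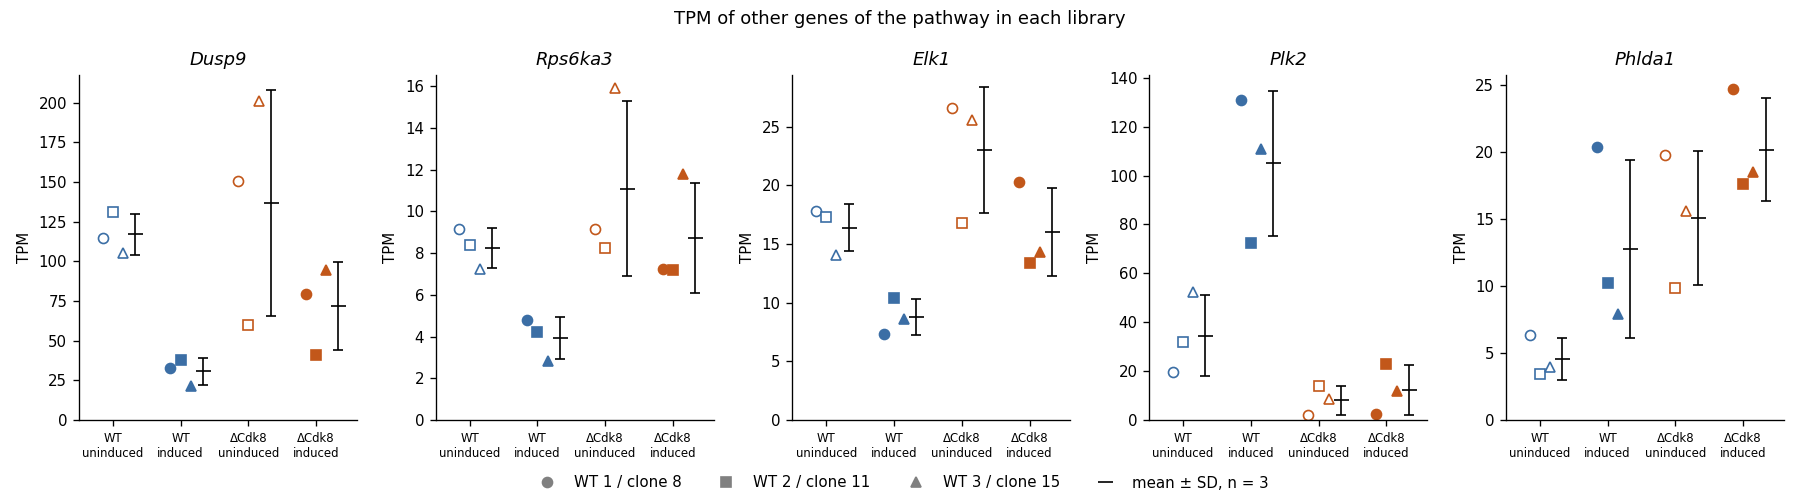
TPM (y axis, linear, from 0) of the X-linked pathway genes Dusp9, Rps6ka3 and Elk1 and of the immediate early genes Plk2 and Phlda1 in the 12 libraries, with WT in blue, ΔCdk8 in orange, open symbols uninduced and filled symbols induced. Black bars give mean±s.d. of 3 libraries. Dusp9 separates uninduced from induced WT samples, and Plk2 separates WT samples from clones within each induction state.

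The stress list of 10 genes and 10 measured SRF targets of the actin cytoskeleton were also counted, because handling of cells and actin dynamics can both reach immediate early genes. None passed in edgeR in any of the 5 comparisons, with or without the block, and DESeq2 called 1, Hmox1, lower in induced clones. An unadjusted p under 0.05 between uninduced genotypes was found for 1 of 10 stress genes and 3 of 10 SRF targets, against 20.4% of all genes. The stress genes summed to between 6017 and 6811 TPM in uninduced WT samples and between 5089 and 7058 TPM in uninduced clones, and had a median log2 fold change of 0.12. The largest differences were those of Gadd45b at 1.17, Ddit3 at 0.97 and Hspb1 at 0.55, and of Hspa1a at −0.85, Hmox1 at −0.63 and Hsph1 at −0.43. Clones 8 and 15 had 35.5 and 63.8 TPM of Ddit3 and clone 11 had 8.80, while the uninduced WT samples had between 11.2 and 24.1. The SRF targets had a median of −0.02, with Acta2 at 1.86, Cyr61 at 1.85 and Actg1 at 0.56 the highest and Cnn1 at −1.98, Myl9 at −1.57 and Actb at −0.94 the lowest. Their part in the member values was not tested.

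The genes whose levels followed Egr1 most closely over the 12 libraries, among 9588 with a mean of at least 5 TPM, were G3bp2 (Pearson's r = 0.90), Gtsf1l (0.90), Rad23b (0.88), Chrna9 (0.87) and Psors1c2 (0.85). For Dusp6 they were Dppa4 (0.94), Tomm40l (0.92), Tigar (0.91), Rab21 (0.90) and Hadha (0.90). The members were left out of this search by rule, so it does not show how closely they follow each other. None of the listed pathway genes was among the genes named. The 12 points share clones, WT numbers and library depths, and these values are given as a description of likeness only.

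In the annotation of GRCm38, Egr1 spans chr18:34859823-34864984 on the forward strand and Fos chr12:85473890-85477273 on the forward strand. Junb lies on the reverse strand at chr8:84974484-84978718 and Ier2, without an intron, on the reverse strand at chr8:84661331-84662852. Ier3 spans chr17:35821684-35822923 on the forward strand. Among the feedback genes, Dusp6 spans chr10:99263231-99267489 and Dusp4 chr8:34807297-34819894, both on the forward strand, and Spry4 chr18:38586268-38601268 on the reverse strand. Etv4 lies at chr11:101769742-101785371 and Etv5 at chr16:22381309-22439719, both on the reverse strand. All reads counted on 9 of the genes mapped uniquely in every library, and Etv5 was the exception, with a share of unique reads that rounds to 100% in each library.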

How the data were processed

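RNA of 12 libraries was analysed. From polyadenylated RNA the authors made stranded libraries, mapped untrimmed reads with the CLC Genomics Workbench (GRCm38, Ensembl annotation) and deposited 1 table per library, with raw read counts on genes, exons and introns. The TPM values deposited by the authors are exon reads per exon length, scaled per library. Whether counting used the strand is not given in the sources used here. RPKM values and transcript-level columns were not used.

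Total gene reads were tested by the quasi-likelihood F test of edgeR 4.0.16 under R 4.3.3. Genes were kept by filterByExpr (min.count 10, min.total.count 15), libraries were scaled by TMM, and two-sided p-values were adjusted over all tested genes after Benjamini and Hochberg. The threshold was the study's: more than 2-fold, and under 0.01 after adjustment. The standard error is the size of the log2 fold change divided by the square root of F. Each comparison was fitted on its own libraries, 6 of them, and the interaction on all 12. DESeq2 1.42.0 was an alternative. The steps were tested on simulated data. Tables were made with Python 3.11.15 and pandas 2.3.3, and figures with matplotlib 3.10.9.

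Induced and uninduced libraries were paired by clone and WT number. Deviations from the group mean of libraries with the same number correlated at 0.787, 0.84 and 0.739 for clones 8, 11 and 15 and at 0.613, 0.453 and 0.421 for WT samples 1, 2 and 3 (15137 genes), so the numbers were taken as a replicate block. Whether same-numbered WT samples came from 1 culture is not given in the sources used here, and p-values measure the spread between these samples, which may be partly technical.

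The members, gene lists and tests were chosen with earlier results of these data known. Besides the members, the text names listed genes past the threshold in any comparison and those with the 3 largest changes per direction in uninduced cells. It also names X-linked Elk1, Araf and Rps6ka3. For Egr1 and for Dusp6 it names the 5 genes, members left aside, that are closest by Pearson's r of log2(TPM + 1). The genes that passed only with the block and Fgfr3 between induced genotypes were chosen after their values were seen. So were the values per library of Ddit3, Krt8, Krt18, Hand1, Nanog, Tfcp2l1, Esrrb, Thy1, Col1a1, Col1a2 and Postn. Alternatives were DESeq2, TMM over autosomal genes, other filters on low counts, unique or exon reads, a threshold of 0.05 on the adjusted p alone, a single fit to the 12 libraries, the replicate block and leaving out each sample. The block combined with leaving out a sample, and group mean TPM, were added after seeing the data.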

Additional observations from a re-analysis of the deposited data

Results flagged for a closer look

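Dusp4 differed between the genotypes in its direction on induction. The mean of its induced over uninduced TPM ratios was 0.884±0.0812 (s.d., n = 3) in WT samples, with each of the 3 below 1, and 1.24±0.311 (s.d., n = 3) in ΔCdk8 clones, with each of the 3 above 1. Clones 8 and 15 were close to 1, at 1.07 and 1.04, and clone 11 was at 1.60, from the lowest uninduced value of the 6 libraries. The interaction was 0.43±0.31 (s.e., adjusted p = 1) on the log2 scale in the edgeR fit without a block and 0.46±0.16 (s.e., adjusted p = 0.135) with it, so the difference did not pass the threshold.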

How the results depend on the processing

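No member crossed the threshold in either genotype comparison or in the interaction under DESeq2, the replicate block where it applies or the fit to all 12 libraries. In ΔCdk8 cells on induction, 1 member (Ier3) passed with the replicate block and 1 with DESeq2, and the block changed no other member's call. The genotype comparisons share no sample numbers, so no block could be fitted there. The smallest p that an exact permutation test of 3 against 3 samples allows is 0.1.

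The number of all genes past the threshold moved most, and the cause was not tested. In uninduced cells between genotypes it was 386 with DESeq2 and 5 in 1 fit to 12 libraries, against 0, and 0 to 2 on leaving out a sample. In induced cells it was 822 with DESeq2, 145 in 1 fit to 12 libraries, 4 without a filter and 4 at an adjusted p under 0.05 alone, and 0 to 54 on leaving out a sample, the most without clone 11. In WT cells on induction it was 662 with DESeq2, 553 with the block and 639 at an adjusted p under 0.05 alone, against 162, and 566 without WT sample 1 but 0 without sample 2 or 3. In ΔCdk8 cells it was 36 with DESeq2 and 208 with the block, and in the interaction 33 and 151.

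The median log2 fold change of the members between uninduced genotypes was 0.01 by group mean TPM, against −0.15, and −0.36 to −0.03 on leaving out a sample. In induced cells it ranged from −0.56 to 0.08, in WT induction from −0.17 to 0.03 and in the interaction from −0.19 to 0.08. The median ratio of member levels, ΔCdk8 over WT, was 1.01 by TPM and 0.903 by TMM-scaled exon reads.

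Direction turned only for values near 0 or resting on 1 library. Ier2 on induction in ΔCdk8 cells (0.01) was −0.001 with DESeq2, −0.01 with autosomal TMM, −0.0002 in 1 fit to 12 libraries and −0.21 with the block, and −0.45 to 0.13 on leaving out a clone. The interaction of Dusp6 was 0.002 on exon reads and −0.06 to 0.03 on leaving out a sample. The interaction of Ier3 was −0.27 with the block and −1.23 to 0.71 on leaving out a sample. Leaving out samples likewise gave −0.78 to 1.49 for Egr1 and −0.29 to 0.03 for Dusp4 between uninduced genotypes and −0.65 to 1.70 for Egr1 between induced ones. On induction in WT cells it gave −0.66 to 0.01 for Junb, −0.36 to 0.04 for Spry4 and, with the block, −0.35 to 0.04 for Spry4 and −0.03 to 0.26 for Ier2. In the interaction it gave −0.17 to 0.22 for Spry4 and −0.64 to 0.14 for Junb. Among single-gene values under an alternative, 695 kept direction and side of the threshold, 22 reversed and 3 newly passed, which were Ier3 with the block and with DESeq2 and Junb with the block without clone 11, all on induction in ΔCdk8 cells.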
